A study of Mus musculus with 15 samples.

Results

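The B7 family and related checkpoint ligands are membrane proteins through which dendritic cells set the strength and the outcome of T cell recognition. The 10 genes described here are Cd80, Cd86, Cd274, Pdcd1lg2, Icosl, Cd276, Cd83, Cd200, Pvr and Btla, of 18194 genes that had at least 1 probe set annotated with a single symbol. They were chosen by symbol, and 21 of the 45101 probe sets on the array carried exactly 1 of these symbols. A gene with several sets takes its value from the one of highest average signal across the 15 arrays. Of the 10, 9 members passed the filter on low signal and were tested, and Cd276 did not pass it.

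The study compared XCR1+ dendritic cells, the conventional dendritic cells specialised in cross-presenting antigen to CD8 T cells, from the thymus and spleen of mice on Affymetrix whole-genome mouse arrays. Its 5 groups held 3 arrays each: thymus CCR7+ cells and thymus CCR7- cells from untreated mice, spleen CCR7+ cells from mice given 10 µg of polyI:C intraperitoneally 18 h earlier, spleen CCR7+ cells from untreated mice, and spleen CCR7- cells from untreated mice. The labels call CCR7- cells immature, untreated CCR7+ cells homeostatically matured, and CCR7+ cells after polyI:C matured through a Toll-like receptor. The gate common to all groups was CD11c+ CD317- CD172a-. Mature cells were CCR7+ and lacked CD117, and immature cells were CD117+ without CCR7. XCR1 is in the names of the cells but not among the sorting markers that the labels list. Strain, age and sex are not given in the labels, nor is it stated whether the replicates came from separate mice, so p-values measure only the spread between these arrays, which may be technical. Only the spleen sample titles carry the tag LT_SetA, so tissue and whatever that tag stands for cannot be told apart.

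CD80 and CD86 bind CD28, which costimulates T cells, and CTLA-4, which restrains them. PD-L1 (Cd274) and PD-L2 (Pdcd1lg2) bind the inhibitory receptor PD-1, and ICOS ligand (Icosl) binds the costimulatory receptor ICOS. CD200 and PVR (CD155) are ligands of the receptor CD200R and of the receptors TIGIT, CD226 and CD96, while BTLA is itself an inhibitory receptor that binds HVEM (Tnfrsf14). Dendritic cells that acquire CCR7, the receptor that guides them to lymph nodes and within lymphoid organs, also change these surface proteins, and in the thymus dendritic cells help to delete self-reactive T cells and to form regulatory T cells.

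The PD-1 ligand genes are the pair that lie next to each other in the genome, so the sequences around their starts are shown. On GRCm38.p6, Cd274 spans chr19:29362107-29388095 and Pdcd1lg2 chr19:29410919-29472927, with a gap of 22823 bases and 0 annotated genes between them. The RefSeq windows, 250 bases before to 50 after the start that the promoter table uses, on the plus strand, are chr19:29367188-29367487 for Cd274 and chr19:29410669-29410968 for Pdcd1lg2. For Cd274 that start lies inside the gene span given here, not at its first base, and distances are counted from the table's start. Capitals mark letters that match a looser interferon regulatory factor core (AANNGAAA on either strand, here on the minus strand) in both genes and, at the start of the Pdcd1lg2 window, a degenerate NF-kB consensus, which matches on both strands at this site.
Cd274: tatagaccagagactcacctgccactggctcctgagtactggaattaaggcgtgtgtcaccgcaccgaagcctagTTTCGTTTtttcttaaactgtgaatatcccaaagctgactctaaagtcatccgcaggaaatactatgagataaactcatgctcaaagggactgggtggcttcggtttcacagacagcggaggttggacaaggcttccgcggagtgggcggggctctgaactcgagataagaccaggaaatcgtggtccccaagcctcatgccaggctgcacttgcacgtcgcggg
Pdcd1lg2: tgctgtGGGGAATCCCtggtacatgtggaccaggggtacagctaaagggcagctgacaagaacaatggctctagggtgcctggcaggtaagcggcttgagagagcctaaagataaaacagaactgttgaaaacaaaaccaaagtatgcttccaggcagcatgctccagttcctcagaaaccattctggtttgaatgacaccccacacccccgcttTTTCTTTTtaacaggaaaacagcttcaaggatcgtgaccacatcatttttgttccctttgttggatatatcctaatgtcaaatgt
The core match began 175 bases before the start in Cd274 and 35 bases before it in Pdcd1lg2, and the NF-kB consensus match began 244 bases before it. Of the 10 members, 7 had a promoter window in the RefSeq table (Cd80, Cd274, Pdcd1lg2, Icosl, Cd276, Cd200 and Btla). A stricter NF-kB motif, an interferon response element and a STAT element (TTCNNNGAA), on either strand, matched none of the 7. Among all 32851 windows of 300 bases they occurred in 1.63%, 3.44% and 8.3%. The 2 looser motifs were searched after the stricter ones had given no match, and they can overlap the stricter ones. The core also occurred in Cd80 and Cd200 and in 23.9% of all windows, and the NF-kB consensus also in Icosl and in 8.46% of all windows. A match describes letters only.

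The sorting transcripts followed the gates in part. Ccr7 averaged 13.03 in thymus CCR7+ cells and 8.84 in thymus CCR7- cells, on the log2 scale used throughout for signal, and 12.87 in spleen CCR7+ cells after polyI:C, 12.95 in untreated spleen CCR7+ cells and 8.42 in spleen CCR7- cells. Kit, which encodes CD117, differed by -2.52, -2.92 and -2.63 log2 units in the same 3 mature groups from the immature cells of their tissue. Xcr1 averaged 5.25 in thymus CCR7+ cells and 11.40 in thymus CCR7- cells, and 7.54, 8.03 and 11.58 in spleen CCR7+ cells after polyI:C, untreated spleen CCR7+ cells and spleen CCR7- cells. The mature groups thus carried less of the transcript that names the cells. Untreated spleen CCR7+ arrays differed most among themselves, with correlations of 0.962 to 0.976 over genes, against 0.979 to 0.990 within the other groups. Replicate 1 of that group had the lowest mean correlation with its own group (0.964), and member calls that end without it are given below, with some other values that move. Its Xcr1 signal was 6.16, against 8.93 or more in the other replicates.

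Markers of other cells also differed between groups. Of 11 T cell markers tested, 8 were called higher and 0 lower in thymus CCR7+ than in thymus CCR7- cells, and their summed linear signal per array was 1448 to 3820 in thymus CCR7+ cells and 479 to 973 in thymus CCR7- cells. It was 357 to 395 in spleen CCR7+ cells after polyI:C, 425 to 451 in untreated spleen CCR7+ cells and 305 to 388 in spleen CCR7- cells. All 11 exceeded the low-signal filter in every thymus CCR7+ array, and 8 to 10 did in the thymus CCR7- arrays. Cd28, in this list, passed the filter through thymus CCR7+ cells alone, in which it had to be high. It is part of the T cell marker counts here and below, and nothing is read from its calls. Of 8 B cell markers tested, 6 were called higher and 0 lower in untreated spleen CCR7+ than in spleen CCR7- cells, with sums of 1470 to 4695 and 782 to 865. In thymus CCR7+ cells 3 were called higher and 0 lower (448 to 1887, against 325 to 425 in thymus CCR7- cells), and after polyI:C the sum was 853 to 1303, with 0 called. Of 11 markers of XCR1+ dendritic cells, 8 were called lower in thymus CCR7+ cells, 8 after polyI:C and 9 in untreated spleen CCR7+ cells than in CCR7- cells, and 2, 1 and 2 higher. Without replicate 1 of the untreated spleen CCR7+ cells, 7 were lower and 2 higher in that group. Of 10 macrophage and monocyte markers, 5, 3 and 2 were called higher and 2, 2 and 1 lower in the same comparisons. In each of the other 6 marker lists (other conventional and plasmacytoid dendritic cells, NK cells, neutrophils, erythroid cells and thymic epithelium), 0 to 3 genes were called per comparison. Over all genes tested, 37.3%, 46.4% and 36.5% were called in thymus CCR7+ cells, after polyI:C and in untreated spleen CCR7+ cells, against CCR7- cells. The part of the cells these lists mark in the results below was not tested. In sorted bulk samples, fewer cells of a type and less RNA per cell cannot be told apart.

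Most members were higher in mature cells in all 3 settings, and Btla was lower in all 3. A gene was called at an adjusted p under 0.05, with the adjustment running over all 13629 genes tested. In thymus CCR7+ against CCR7- cells, 7 of the 9 tested members were called higher and 2, Cd86 and Btla, lower, while 37.3% of all genes tested were called, 16.8% higher and 20.4% lower. In untreated spleen CCR7+ against CCR7- cells, 6 were called higher and 3, Cd80, Cd86 and Btla, lower, while 36.5% of all genes were called, 12.3% higher and 24.1% lower. In spleen CCR7+ cells after polyI:C against untreated spleen CCR7- cells, 7 were called higher and 1, Btla, lower, and Cd86 was not called, while 46.4% of all genes were called, 18.4% higher and 28% lower. The comparisons in the spleen share the CCR7- arrays. The median change of the tested members was 1.59, 2.03 and 3.19 log2 units in these 3 comparisons, beside -0.06, -0.03 and 0.02 over all genes tested. The 3 arrays of one group lay wholly apart from those of the other for 9, 9 and 8 of the 9 members, beside 50.4%, 43% and 57.2% of all genes.

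**Figure D1:**
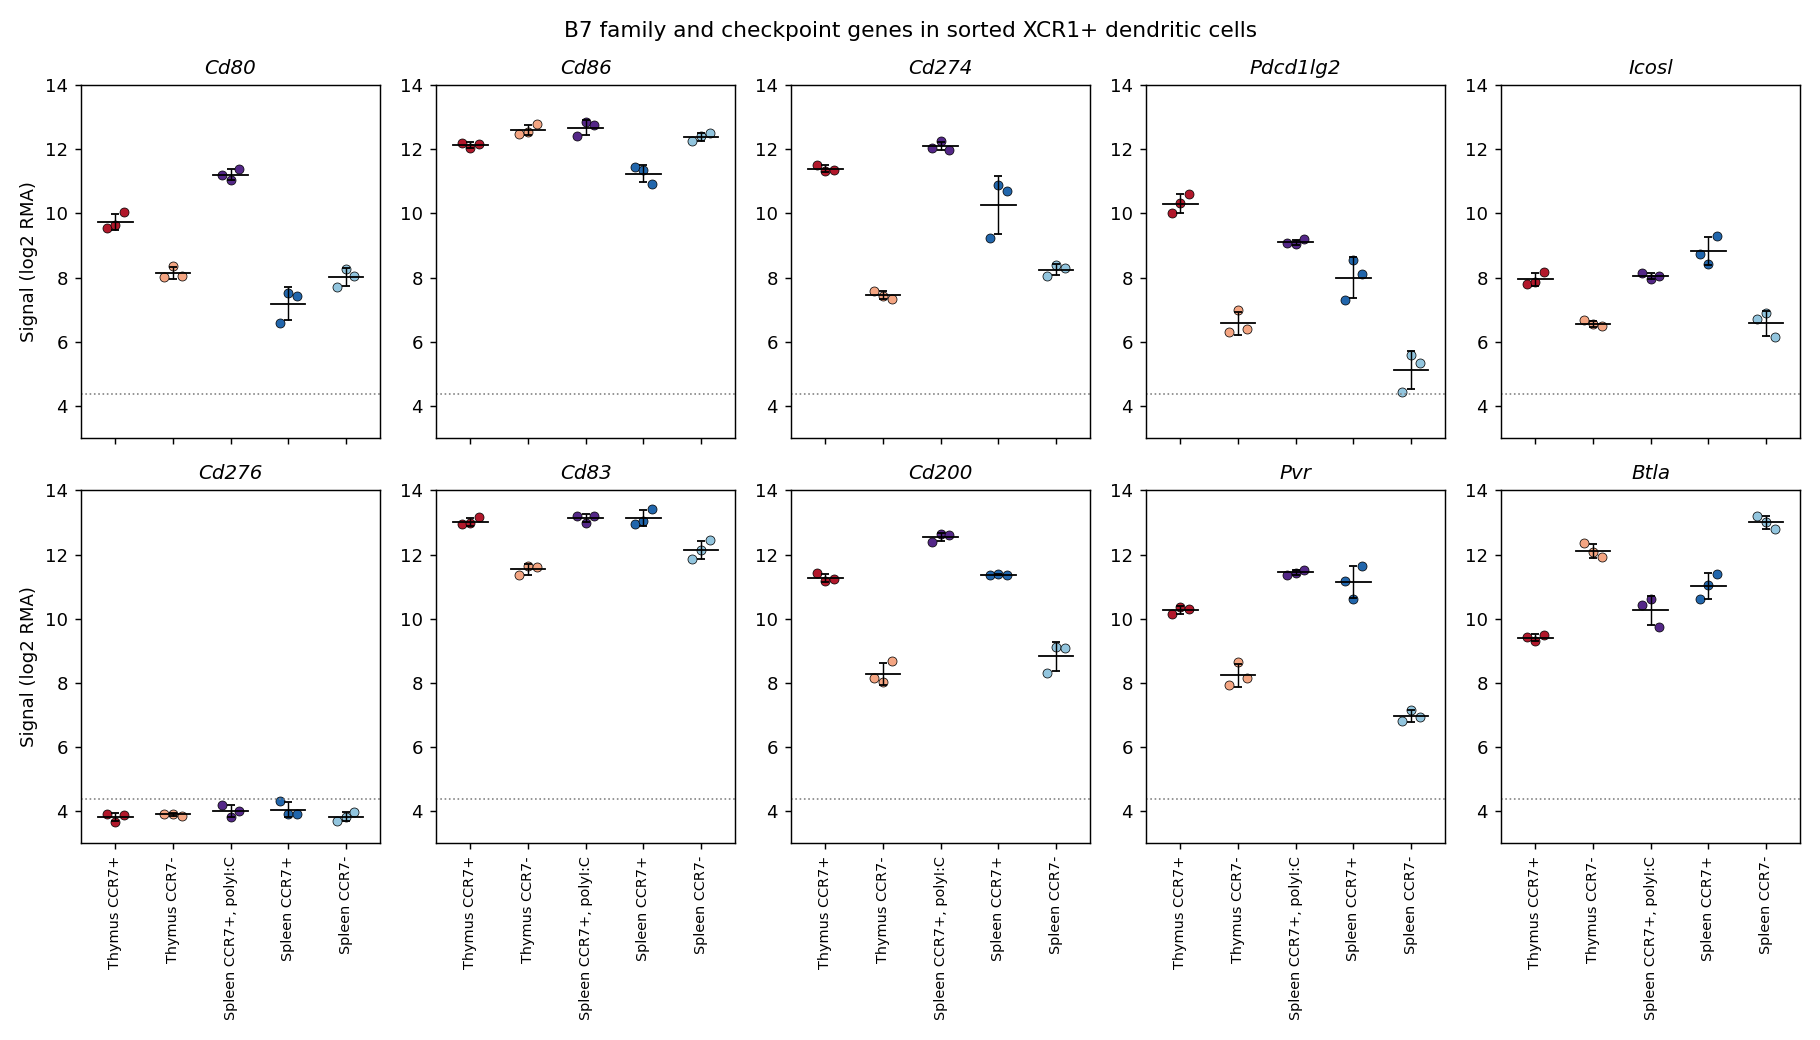
Log2 signal of the 10 members in each of the 15 arrays (points) by group, with group mean and SD (bars, n = 3 per group). The dotted line is the low-signal filter of 4.39. Cd276 lies below it in all 15 arrays, and Btla is the member whose CCR7- arrays lie above the CCR7+ arrays in both tissues and after polyI:C.

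**Figure D2:**
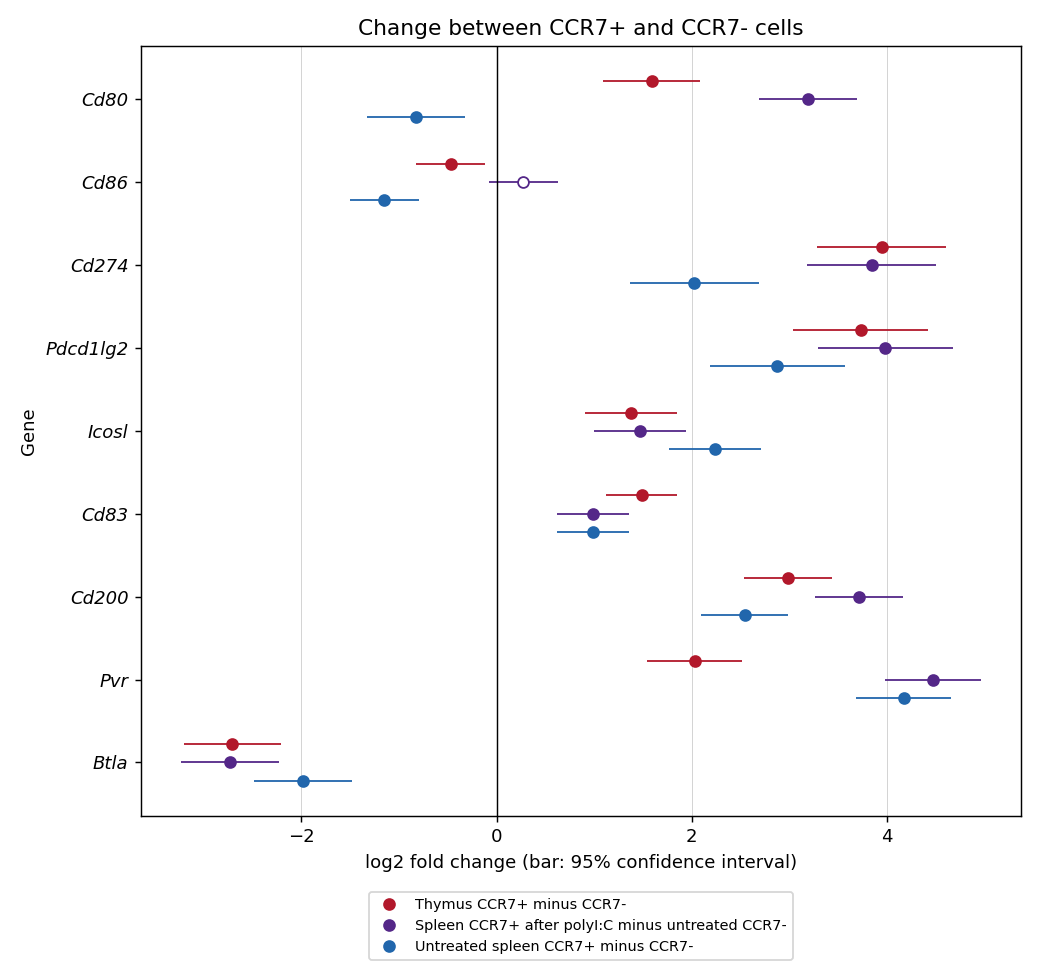
Change between CCR7+ and CCR7- cells of the 9 tested members, as log2 fold change with its 95% confidence interval, for the thymus, for the spleen after polyI:C (against untreated CCR7- cells) and for the untreated spleen. Filled points are called and the open point (Cd86 after polyI:C) is not. Cd80 has points on both sides of 0.

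Cd80, which encodes one of the shared ligands of CD28 and CTLA-4, went in opposite directions in the thymus and the untreated spleen. It read 9.54, 9.63 and 10.03 in thymus CCR7+ cells, against 8.03, 8.36 and 8.04 in thymus CCR7- cells. Spleen cells had 11.19, 11.03 and 11.37 after polyI:C and 6.60, 7.52 and 7.44 in untreated CCR7+ cells, against 7.71, 8.25 and 8.06 in CCR7- cells. The polyI:C arrays were the highest of all 15, the untreated spleen CCR7+ arrays were the lowest, and no array crossed its comparison group. Cd80 rose by 1.59 ± 0.23 (SE) log2 units in thymus CCR7+ cells (adjusted p = 8.13e-05) and by 3.19 ± 0.23, or 9.13-fold, in spleen CCR7+ cells after polyI:C (adjusted p = 8.11e-08). It fell by 0.82 ± 0.23 in untreated spleen CCR7+ cells (adjusted p = 0.0123). That fall was the least stable of the 3, since it was no longer called without spleen CCR7+ replicate 1 (-0.53, adjusted p = 0.054), without spleen CCR7- replicate 2 (-0.70, adjusted p = 0.0553) or with only the 2 groups fitted (adjusted p = 0.0637). Between the mature spleen groups, Cd80 was 4.01 ± 0.23 log2 units, or 16.2-fold, higher after polyI:C than without it (adjusted p = 3.88e-08). Without spleen CCR7+ replicate 1 this difference was 3.72.

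Another 3 probe sets of Cd80 passed the filter. Set 1432826_a_at rose by 1.82 in thymus CCR7+ cells and by 2.73 after polyI:C, and fell by 1.23 in untreated spleen CCR7+ cells, all called. Set 1451950_a_at rose by 1.75 and 2.42 in the thymus and after polyI:C, with an uncalled -0.42 in the untreated spleen. The third, 1454372_at, lay near the filter and had -0.21, 0.39 and 0.14 in the thymus, after polyI:C and in the untreated spleen, of which only 0.39 was called. The sets that read well above the filter thus shared the signs of the chosen set, 1427717_at.

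Cd86, the other CD28 and CTLA-4 ligand, was high in every group and fell most in untreated spleen CCR7+ cells. Its chosen set, 1449858_at, read 12.20, 12.04 and 12.15 in thymus CCR7+ cells, against 12.48, 12.53 and 12.77 in thymus CCR7- cells. Among spleen cells it was 12.40, 12.84 and 12.76 after polyI:C and 11.45, 11.35 and 10.93 in untreated CCR7+ cells, against 12.25, 12.42 and 12.50 in CCR7- cells. The untreated spleen CCR7+ arrays were the lowest 3 of the 15, and the polyI:C arrays overlapped the CCR7- arrays. Cd86 fell by 1.15 ± 0.16 log2 units in untreated spleen CCR7+ cells (adjusted p = 0.000102) and by 0.47 ± 0.16 in thymus CCR7+ cells (adjusted p = 0.0362). After polyI:C its difference from spleen CCR7- cells was 0.28 ± 0.16 (95% interval -0.08 to 0.63, adjusted p = 0.187), and it was 1.43 ± 0.16 above untreated spleen CCR7+ cells (adjusted p = 3.95e-05). The thymic call ended when any of 5 arrays was left out: any thymus CCR7+ array (replicate 1 gave -0.50, 2 gave -0.42 and 3 gave -0.48), and thymus CCR7- replicate 2 (-0.50) and 3 (-0.38), with adjusted p of 0.0582 to 0.145. It also ended with replicate number as a block (-0.47, adjusted p = 0.0505). The other set, 1420404_at, fell in all 3 comparisons, by 0.85 in thymus CCR7+ cells, by 0.55 after polyI:C and by 1.46 in untreated spleen CCR7+ cells, so the sets of Cd86 disagree in sign after polyI:C.

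**Figure D3:**
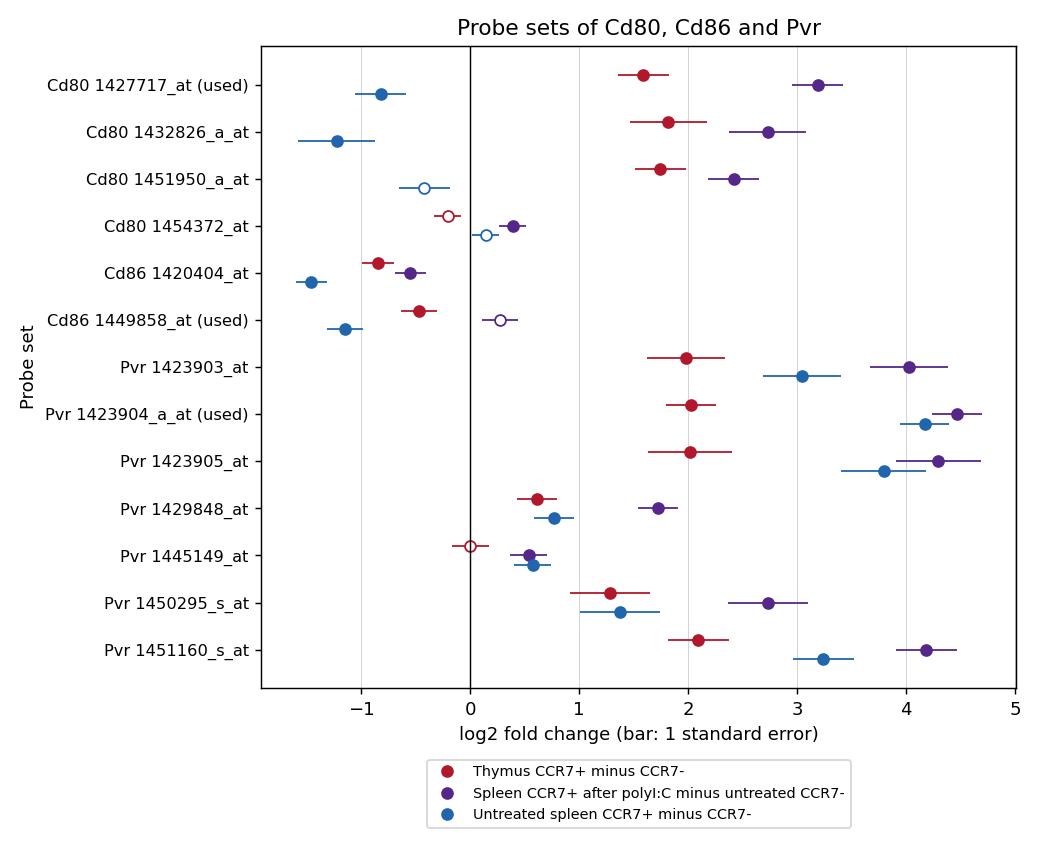
Log2 fold change with its standard error for each tested probe set of Cd80, Cd86 and Pvr in the same 3 comparisons, with the chosen sets marked as used. Filled points are called and open points are not, over all probe sets tested. The 2 sets of Cd86 lie on opposite sides of 0 after polyI:C, and the sets of Pvr differ in size.

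Cd274, which encodes PD-L1, rose in mature cells of both tissues. It read 11.52, 11.31 and 11.36 in thymus CCR7+ cells, against 7.57, 7.44 and 7.32 in thymus CCR7- cells. Spleen arrays gave 12.05, 12.24 and 11.99 after polyI:C and 9.24, 10.89 and 10.69 in untreated CCR7+ cells, against 8.05, 8.38 and 8.30 in CCR7- cells. Every mature array lay above every immature one, and replicate 1 of the untreated spleen CCR7+ cells was the lowest of the mature arrays. The rise was 3.95 ± 0.31 log2 units, or 15.4-fold, in thymus CCR7+ cells (adjusted p = 2.18e-07), 3.84 ± 0.31 after polyI:C (adjusted p = 1.96e-07) and 2.03 ± 0.31 in untreated spleen CCR7+ cells (adjusted p = 0.00017). Without spleen CCR7+ replicate 1 the last was 2.55 (adjusted p = 6.86e-08). PolyI:C cells were 1.82 ± 0.31 above untreated spleen CCR7+ cells (adjusted p = 0.000889), or 1.30 without that array (adjusted p = 6.79e-05).

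Pdcd1lg2, which encodes PD-L2, rose in every mature group, as Cd274 and other members did, but ranked the mature groups differently from Cd274. It read 10.01, 10.31 and 10.60 in thymus CCR7+ cells, against 6.31, 7.0 and 6.41 in thymus CCR7- cells. Its spleen values were 9.07, 9.04 and 9.20 after polyI:C and 7.31, 8.56 and 8.12 in untreated CCR7+ cells, against 4.45, 5.59 and 5.32 in CCR7- cells. Thymus CCR7+ cells were highest, and the spleen CCR7- arrays came closest to the filter of 4.39. The rise was 3.73 ± 0.32 log2 units, or 13.3-fold, in thymus CCR7+ cells (adjusted p = 5.79e-07), 3.98 ± 0.32 after polyI:C (adjusted p = 2.18e-07) and 2.88 ± 0.32 in untreated spleen CCR7+ cells (adjusted p = 1.3e-05). Without spleen CCR7+ replicate 1 the last was 3.22. PolyI:C cells were 1.11 ± 0.32 above untreated spleen CCR7+ cells (adjusted p = 0.0276), a call that ended without spleen CCR7+ replicate 1 (0.76, adjusted p = 0.104) and without polyI:C replicate 1 (1.12), 2 (1.14) or 3 (1.06).

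Icosl rose in mature cells of both tissues, and most in the untreated spleen. It read 7.80, 7.85 and 8.17 in thymus CCR7+ cells, against 6.67, 6.54 and 6.49 in thymus CCR7- cells. Spleen levels were 8.14, 7.96 and 8.04 after polyI:C and 8.72, 8.43 and 9.30 in untreated CCR7+ cells, against 6.71, 6.89 and 6.14 in CCR7- cells. The mature and immature arrays did not overlap, and the untreated spleen CCR7+ arrays were the highest 3. Icosl rose by 1.38 ± 0.22 log2 units in thymus CCR7+ cells (adjusted p = 0.000171), by 1.47 ± 0.22 after polyI:C (adjusted p = 6.86e-05) and by 2.24 ± 0.22 in untreated spleen CCR7+ cells (adjusted p = 3.83e-06). PolyI:C cells were 0.77 ± 0.22 below untreated spleen CCR7+ cells (adjusted p = 0.0249), and this call ended without polyI:C replicate 2 (-0.73) or 3 (-0.77) or spleen CCR7+ replicate 3 (-0.53). B cells also express Icosl. The B cell marker sum of the untreated spleen CCR7+ arrays was 1997, 4695 and 1470 for replicates 1 to 3, against 782 to 865 in spleen CCR7- cells. The part of B cells in the Icosl values was not tested. A second probe set, 1426087_at, lay below the filter and was not tested.

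Cd276, which encodes B7-H3, read 3.68 to 3.92 in thymus CCR7+ cells, 3.86 to 3.93 in thymus CCR7- cells, 3.82 to 4.20 in spleen CCR7+ cells after polyI:C, 3.91 to 4.33 in untreated spleen CCR7+ cells and 3.71 to 3.98 in spleen CCR7- cells. No array exceeded the filter, so no difference could be tested, and the deposited values give no detection call for it.

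Cd83, a maturation marker that stabilises CD86 and MHC class II at the surface by opposing the ubiquitin ligase MARCH1, was already high in immature cells. It read 12.93, 12.97 and 13.17 in thymus CCR7+ cells, against 11.35, 11.66 and 11.61 in thymus CCR7- cells. In the spleen it read 13.21, 13.00 and 13.20 after polyI:C and 12.94, 13.04 and 13.42 in untreated CCR7+ cells, against 11.85, 12.14 and 12.44 in CCR7- cells. The 3 mature groups overlapped one another and lay above both immature groups. Cd83 rose by 1.49 ± 0.17 log2 units in thymus CCR7+ cells (adjusted p = 9.23e-06), by 0.99 ± 0.17 after polyI:C (adjusted p = 0.000243) and by 0.99 ± 0.17 in untreated spleen CCR7+ cells (adjusted p = 0.000455). The polyI:C and untreated mature spleen cells differed by 0.00 ± 0.17 (95% interval -0.37 to 0.37, adjusted p = 0.999).

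Cd200 rose strongly in every mature group. It read 11.42, 11.17 and 11.23 in thymus CCR7+ cells, against 8.15, 8.02 and 8.67 in thymus CCR7- cells. In the spleen it read 12.39, 12.64 and 12.60 after polyI:C and 11.35, 11.38 and 11.38 in untreated CCR7+ cells, against 8.30, 9.11 and 9.08 in CCR7- cells. The polyI:C arrays were the highest 3, and the untreated spleen CCR7+ arrays were close to each other. The rise was 2.99 ± 0.21 log2 units, or 7.95-fold, in thymus CCR7+ cells (adjusted p = 8.36e-08), 3.71 ± 0.21 after polyI:C (adjusted p = 7.01e-09) and 2.54 ± 0.21 in untreated spleen CCR7+ cells (adjusted p = 7.04e-07). PolyI:C cells were 1.17 ± 0.21 above untreated spleen CCR7+ cells (adjusted p = 0.00136). T cells and B cells can express Cd200 too, and the T cell marker sum moved with it in the thymus but was at most 395 in the polyI:C arrays, where Cd200 was highest. The B cell marker sum was 448 to 1887 in thymus CCR7+ and 325 to 425 in thymus CCR7- cells. In the spleen it was 853 to 1303 after polyI:C and 1470 to 4695 in untreated CCR7+ cells, against 782 to 865 in CCR7- cells. The part of either list in the Cd200 values was not tested.

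On the chosen probe sets, Pvr showed the largest rise of the members in the spleen and a smaller one in the thymus. Its chosen set, 1423904_a_at, read 10.15, 10.38 and 10.29 in thymus CCR7+ cells, against 7.93, 8.64 and 8.16 in thymus CCR7- cells. In the spleen it read 11.37, 11.44 and 11.53 after polyI:C and 11.16, 10.62 and 11.65 in untreated CCR7+ cells, against 6.81, 7.17 and 6.94 in CCR7- cells. Mature arrays lay above immature arrays in each tissue, and the polyI:C arrays fell inside the range of the untreated spleen CCR7+ arrays. The rise was 2.03 ± 0.23 log2 units in thymus CCR7+ cells (adjusted p = 7.23e-06), 4.47 ± 0.23, or 22.2-fold, after polyI:C (adjusted p = 2.54e-09) and 4.17 ± 0.23, or 18.0-fold, in untreated spleen CCR7+ cells (adjusted p = 1.39e-08). PolyI:C and untreated mature spleen cells differed by 0.30 ± 0.23 (95% interval -0.19 to 0.79, adjusted p = 0.437).

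The size of the Pvr change depended on the probe set. Leaving out 1450295_s_at, the other sets rose by 0.54 to 4.30 after polyI:C and by 0.58 to 3.79 in untreated spleen CCR7+ cells, all called. Sets 1429848_at, 1445149_at and 1450295_s_at were dim, with group means of at most 6.38, 5.35 and 6.27. Set 1450295_s_at had 0 arrays above the filter in either CCR7- group. It passed through mature groups, so nothing is read from its calls. The brighter of the other sets rose by 4.03 to 4.30 after polyI:C and by 3.05 to 3.79 in untreated spleen CCR7+ cells. In thymus CCR7+ cells the other sets, again without 1450295_s_at, rose by 0.61 to 2.10, except 1445149_at, which had 0.00. The mean over all sets of the gene, the dim ones included, gave 2.42 in place of 4.17 in the untreated spleen, below Pdcd1lg2 (2.88) and Cd200 (2.54). After polyI:C it gave 3.14 in place of 4.47, below Pdcd1lg2 (3.98), Cd274 (3.84) and Cd200 (3.71). It raised the polyI:C against untreated mature difference to 0.72 (adjusted p = 0.0221).

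Btla, the receptor among the members, was lower in every mature group. It read 9.44, 9.30 and 9.50 in thymus CCR7+ cells, against 12.36, 12.07 and 11.93 in thymus CCR7- cells. In the spleen it read 10.44, 10.61 and 9.76 after polyI:C and 10.60, 11.05 and 11.40 in untreated CCR7+ cells, against 13.20, 13.00 and 12.80 in CCR7- cells. The immature arrays lay above all mature ones. Btla fell by 2.71 ± 0.23 log2 units, or 6.53-fold, in thymus CCR7+ cells (adjusted p = 5.63e-07), by 2.73 ± 0.23 after polyI:C (adjusted p = 3.58e-07) and by 1.99 ± 0.23 in untreated spleen CCR7+ cells (adjusted p = 1.97e-05). PolyI:C cells were 0.75 ± 0.23 below untreated spleen CCR7+ cells (adjusted p = 0.0387), although the arrays overlapped, and that call ended without polyI:C replicate 1 (-0.83) or 3 (-0.49) or spleen CCR7+ replicate 2 (-0.73) or 3 (-0.55). Without spleen CCR7+ replicate 1 the difference was -0.96 (adjusted p = 0.0113). B and T cells express Btla as well. Both marker sums were higher in all CCR7+ than in all CCR7- arrays of the thymus and of the untreated spleen. After polyI:C the B cell sum was 853 to 1303, against 782 to 865 in spleen CCR7- cells. The T cell sum was 357 to 395, against 305 to 388. The part of these cells in the Btla values was not tested. On chromosome 16, Btla and Cd200 lie 129215 bases apart with 0 protein-coding genes between them, and they changed in opposite directions in all 3 comparisons.

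Cd80 was the member that differed most between mature spleen cells with and without polyI:C. Of the 9 tested members, 5 were called higher (Cd80, Cd86, Cd274, Pdcd1lg2 and Cd200) and 2 lower (Icosl and Btla) after polyI:C than in untreated CCR7+ cells, while 18.2% of all genes were called, 8.58% higher and 9.66% lower. Arrays did not overlap for 6 members, beside 27.3% of all genes. The Cd80 difference of 4.01 log2 units was the largest of the 9, and Cd83 and Pvr were not called. Leaving out spleen CCR7+ replicate 1 gave 4 higher and 2 lower. In the same comparison 6 of 11 XCR1+ dendritic cell markers were called lower and 0 higher (median -0.76), and 3 of 8 B cell markers lower and 0 higher (median -0.92). Without that replicate 8 and 4 were lower, and the part of these lists in the members' differences was not tested.

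Between immature cells of the tissues, 4 members differed. Of the 9, 2 were called higher (Pdcd1lg2 and Pvr) and 2 lower (Cd83 and Btla) in thymus CCR7- than in spleen CCR7- cells, while 8.16% of all genes were called, 4.92% higher and 3.24% lower. Arrays did not overlap for 5 members, beside 25.9% of all genes. With replicate number as a block within immature and within mature cells, 2146 genes in place of 1112 were called, with the same counts of members. Pdcd1lg2 was 1.45 ± 0.32 log2 units higher in the thymus (adjusted p = 0.0103) and Pvr 1.27 ± 0.23 higher (adjusted p = 0.00233), while Btla was 0.88 ± 0.23 lower (adjusted p = 0.0297) and Cd83 0.60 ± 0.17 lower (adjusted p = 0.043). Cd80 differed by 0.14 ± 0.23 (95% interval -0.36 to 0.64, adjusted p = 0.888), and Cd274 by -0.80 ± 0.31 (adjusted p = 0.157) although all 3 thymus arrays were below all 3 of the spleen. Cd274 was called with only the 2 groups fitted (-0.80, adjusted p = 0.00942) and with array weights (-0.88, adjusted p = 0.00382). The Pdcd1lg2 call ended without thymus CCR7- replicate 2 (1.24). The Btla call ended without thymus CCR7- replicate 2 (-0.86) or 3 (-0.78) or spleen CCR7- replicate 1 (-0.78) or 2 (-0.88). The Cd83 call ended without any of thymus CCR7- replicates 1 (-0.51), 2 (-0.66) and 3 (-0.64) and spleen CCR7- replicates 2 (-0.61) and 3 (-0.46). Cd200 was not called (-0.55, adjusted p = 0.154) but was called without spleen CCR7- replicate 1 (-0.81, adjusted p = 0.0125). For Pvr, the call rested on the chosen probe set, since the mean over its sets gave 0.56 (adjusted p = 0.113). Of 6 thymic epithelium markers tested, 2 were called higher and 0 lower in thymus CCR7- cells, and the list's summed signal was 1510 to 1694 in thymus CCR7- and 216 to 257 in spleen CCR7- cells. Of the T cell markers 2 were higher and 0 lower, and the part of these lists was not tested.

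Between mature cells of the tissues, 7 members differed. Of the 9, 4 were called higher (Cd80, Cd86, Cd274 and Pdcd1lg2) and 3 lower (Icosl, Pvr and Btla) in thymus CCR7+ than in untreated spleen CCR7+ cells, while 12.2% of all genes were called, 8.71% higher and 3.47% lower. Arrays did not overlap for 7 members, beside 26.2% of all genes. With the replicate block, 3501 genes in place of 1660 were called, again with the same counts of members. Cd80 was 2.55 ± 0.23 log2 units, or 5.85-fold, higher in the thymus (adjusted p = 7.72e-06), Pdcd1lg2 2.31 ± 0.32 (adjusted p = 0.000291), Cd274 1.12 ± 0.31 (adjusted p = 0.0285) and Cd86 0.89 ± 0.16 (adjusted p = 0.00258). Without spleen CCR7+ replicate 1 these were 2.25, 1.97, 0.60 and 0.99, all called. The 4 genes that were higher are the ligands of CD28, CTLA-4 and PD-1. Btla was 1.60 ± 0.23 lower (adjusted p = 0.000407), Icosl 0.88 ± 0.22 lower (adjusted p = 0.0177) and Pvr 0.87 ± 0.23 lower (adjusted p = 0.0223), while Cd83 (-0.11, adjusted p = 0.727) and Cd200 (-0.10, adjusted p = 0.8) were not called. The T cell marker list moved with this comparison (8 of 11 called higher in the thymus), as did the XCR1+ dendritic cell markers (7 of 11 lower and 0 higher, median -2.09). Their part in the members' differences was not tested.

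In the fit without the replicate block, calls for 3 of these genes were fragile. Leaving out arrays was not tried with that block. The Cd274 call ended without thymus CCR7+ replicate 1 (1.06), 2 (1.16) or 3 (1.14). The Icosl call ended without thymus CCR7+ replicate 1 (-0.81) or 2 (-0.83) or spleen CCR7+ replicate 3 (-0.64). The Pvr call ended without any of thymus CCR7+ replicates 1 (-0.81), 2 (-0.93) and 3 (-0.88) and spleen CCR7+ replicates 1 (-0.86) and 3 (-0.62), and with the mean over its probe sets (-0.44, adjusted p = 0.184).

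**Figure D4:**
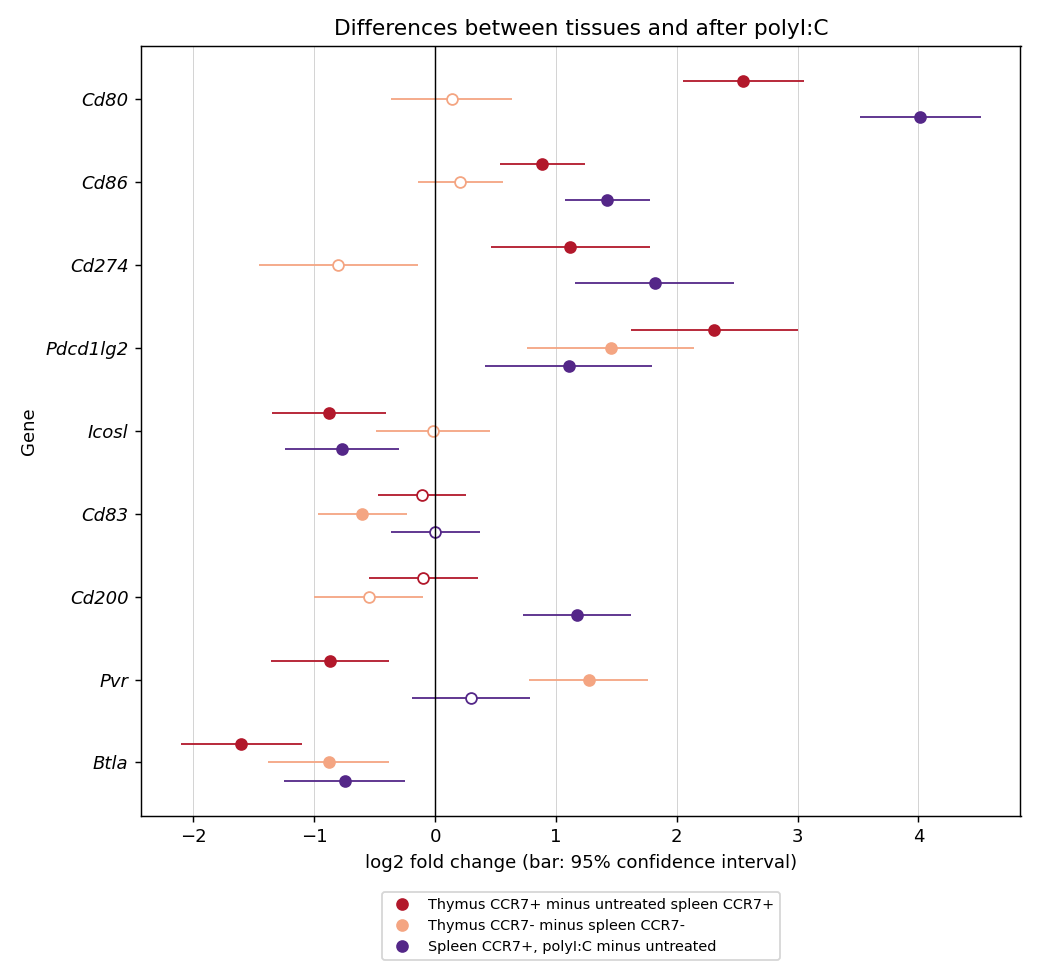
Differences of the 9 tested members, as log2 fold change with 95% confidence interval, between thymus and untreated spleen in CCR7+ cells, between thymus and spleen in CCR7- cells, and between polyI:C and no treatment in spleen CCR7+ cells. Filled points are called and open points are not. Cd80 has the largest difference between the mature groups (2.55 and 4.01) and 0.14 between the immature ones.

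Against the polyI:C cells, thymus CCR7+ cells carried less of most members. Of the 9, 1 was called higher (Pdcd1lg2) and 5 lower (Cd80, Cd86, Cd200, Pvr and Btla) in the thymus, while 24.1% of all genes were called, 16.7% higher and 7.4% lower. Arrays did not overlap for 7 members, beside 42.1% of all genes. Treatment and tissue both differ here and cannot be told apart. Pdcd1lg2 was 1.20 ± 0.32 log2 units higher in thymus CCR7+ cells (adjusted p = 0.0142), a call that ended without thymus CCR7+ replicate 3 (1.06, adjusted p = 0.0573). Cd80 was 1.46 ± 0.23 lower (adjusted p = 0.000439), Cd200 1.27 ± 0.21 lower (adjusted p = 0.000576) and Pvr 1.17 ± 0.23 lower (adjusted p = 0.00191). Btla was 0.86 ± 0.23 lower (adjusted p = 0.0154), a call that ended without thymus CCR7+ replicate 2 (-0.80) or polyI:C replicate 1 (-0.77) or 2 (-0.68). Cd86 was 0.54 ± 0.16 lower (adjusted p = 0.0279), a call that ended without thymus CCR7+ replicate 2 (-0.49) or 3 (-0.55) or polyI:C replicate 2 (-0.45) or 3 (-0.49), or with its other probe set (-0.31, adjusted p = 0.158). Cd274 (-0.70, adjusted p = 0.118), Icosl (-0.11, adjusted p = 0.748) and Cd83 (-0.11, adjusted p = 0.665) were not called. Cd274 was called with only the 2 groups fitted (-0.70, adjusted p = 0.0102) and with array weights (-0.68, adjusted p = 0.0214). In thymus CCR7+ cells 8 of 11 T cell markers were called higher and 0 lower than after polyI:C (median 1.53), and 5 of 11 XCR1+ dendritic cell markers lower and 2 higher (median -0.77), and their part was not tested.

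The difference between the thymic and the untreated splenic change was tested directly. Of the 9, 2 were called with a higher change in the thymus (Cd80 and Cd274) and 1 with a lower one (Pvr), while 3.18% of all genes were called, 1.79% higher and 1.39% lower. For Cd80 the thymic change exceeded the splenic one by 2.41 ± 0.33 log2 units (adjusted p = 0.000855), with opposite signs in the 2 tissues, and by 2.12 without spleen CCR7+ replicate 1 (adjusted p = 0.000476). Its sets 1432826_a_at and 1451950_a_at were also called for this difference, at 3.05 and 2.17. For Cd274 the difference was 1.92 ± 0.44 (adjusted p = 0.0269), or 1.40 without spleen CCR7+ replicate 1 (adjusted p = 0.00159), with both tissues rising. The Cd274 call ended when 1 of 7 other arrays was left out, with values of 1.85 to 1.96 and adjusted p of 0.0551 to 0.0756: all 3 of thymus CCR7+ (1.86, 1.96 and 1.94), replicates 2 and 3 of thymus CCR7- (1.92 and 1.86) and replicates 2 and 3 of spleen CCR7- (1.85 and 1.89). For Pvr the thymic change was smaller by -2.14 ± 0.32 (adjusted p = 0.00181), but only the chosen probe set was called, and the mean over the sets gave -0.99 (adjusted p = 0.0755). With replicate number within CCR7+ and CCR7- cells as a block, in a fit to the 12 untreated arrays, 1462 genes in place of 433 were called for this difference, and Icosl was called as well (-0.86, adjusted p = 0.047). The other 6 members were not called in the fit without the block, with differences from -0.86 (Icosl, adjusted p = 0.178) to 0.86 (Pdcd1lg2, adjusted p = 0.399). Among them Cd86 (0.68, adjusted p = 0.146) was called with the mean over its probe sets (0.65, adjusted p = 0.0317).

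The order of the 5 groups was different for nearly every member, going by group means and the tests between neighbours. For Cd80 it ran from polyI:C cells through thymus CCR7+ cells to both immature groups, which were not called different, and last to untreated spleen CCR7+ cells. For Cd86 the first 4 groups did not differ between neighbours, and untreated spleen CCR7+ cells were below them. Cd274 ran from polyI:C and thymus CCR7+ cells, not called different, to untreated spleen CCR7+ cells and then both immature groups, which were not called different. Both of these Cd274 pairs were called with only the 2 groups fitted or with array weights. Pdcd1lg2 had a step at each place, with thymus CCR7+ cells first, then polyI:C cells, untreated spleen CCR7+ cells, thymus CCR7- cells and spleen CCR7- cells. Icosl began with untreated spleen CCR7+ cells, followed by polyI:C and thymus CCR7+ cells at levels not called different, and both immature groups. For Cd83 the 3 mature groups were not called different between neighbours, and spleen CCR7- cells lay above thymus CCR7- cells. For Cd200 polyI:C cells led, the other mature groups followed together and the immature ones came last together. Pvr ran from polyI:C and untreated spleen CCR7+ cells, not called different, to thymus CCR7+, thymus CCR7- and spleen CCR7- cells with a step at each place. Btla also had a step at each place, from spleen CCR7- and thymus CCR7- cells to untreated spleen CCR7+, polyI:C and thymus CCR7+ cells. Some of these steps were no longer called when a single array was left out, as given above. They include steps of Cd80, Cd274, Pdcd1lg2, Icosl, Cd83, Pvr and Btla. The Pvr steps between tissues also ended with the mean over its probe sets.

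Receptors and binding partners of the members, with related receptors such as Cd160, were measured in the same cells. Of 15 listed, 12 had a probe set and 9 were tested, and Pdcd1, which encodes PD-1, Cd226 and Cd200r3 fell below the filter. In thymus CCR7+ against CCR7- cells 5 of the 9 were called higher and 0 lower (median 0.53, beside -0.06 over all genes). After polyI:C 4 were called higher and 2 lower (median 0.14, beside 0.02), and in untreated spleen CCR7+ cells 2 higher and 0 lower (median 0.12, beside -0.03), or 3 and 0 without replicate 1. Of all genes tested, 37.3%, 46.4% and 36.5% were called in the same order. Rgmb, which encodes a binding partner of PD-L2, rose by 3.21 in thymus CCR7+ cells, by 4.30 after polyI:C and by 3.68 in untreated spleen CCR7+ cells. Icos, the receptor for ICOS ligand, rose by 1.93, 1.66 and 2.64 in the same order. Both transcripts thus rose in the cells in which Pdcd1lg2 and Icosl rose. Cd28 and Cd200r4 passed the filter through 1 group each, thymus CCR7+ and polyI:C cells, in which they had to be high, so nothing is read from these counts.

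Other partners changed in some comparisons only. Tnfrsf14, which encodes the BTLA ligand HVEM, rose by 0.53 in thymus CCR7+ cells and by 0.80 after polyI:C, and had 0.37 in untreated spleen CCR7+ cells, not called. Cd96 rose by 1.33 in thymus CCR7+ cells, the group with the highest T cell marker sum, and the part of T cells in it was not tested. Cd28, itself in the T cell marker list, averaged 5.94 in that group and 3.98 to 4.12 in the other groups, with 0 arrays above the filter. After polyI:C, Ctla4 and Cd200r1 fell by 2.18 and 0.96. Cd200r4 averaged 4.89 after polyI:C and 3.25 to 3.47 in the other groups, with 0 arrays above the filter. Cd200r1 averaged 4.13 after polyI:C and 5.09 in spleen CCR7- cells, with 1 and 3 arrays above it. In immature cells, Ctla4, Cd200r1 and Icos were lower in the thymus by -2.44, -1.05 and -0.83, and 0 partners were called higher. Cd200r1 had 0 arrays above the filter in thymus CCR7- cells. Between mature cells Cd96 (1.31) was called higher in the thymus, and 2 were called lower, Icos (-1.54) and Rgmb (-0.94). The call of Cd28 in this comparison is not read.

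**Figure D5:**
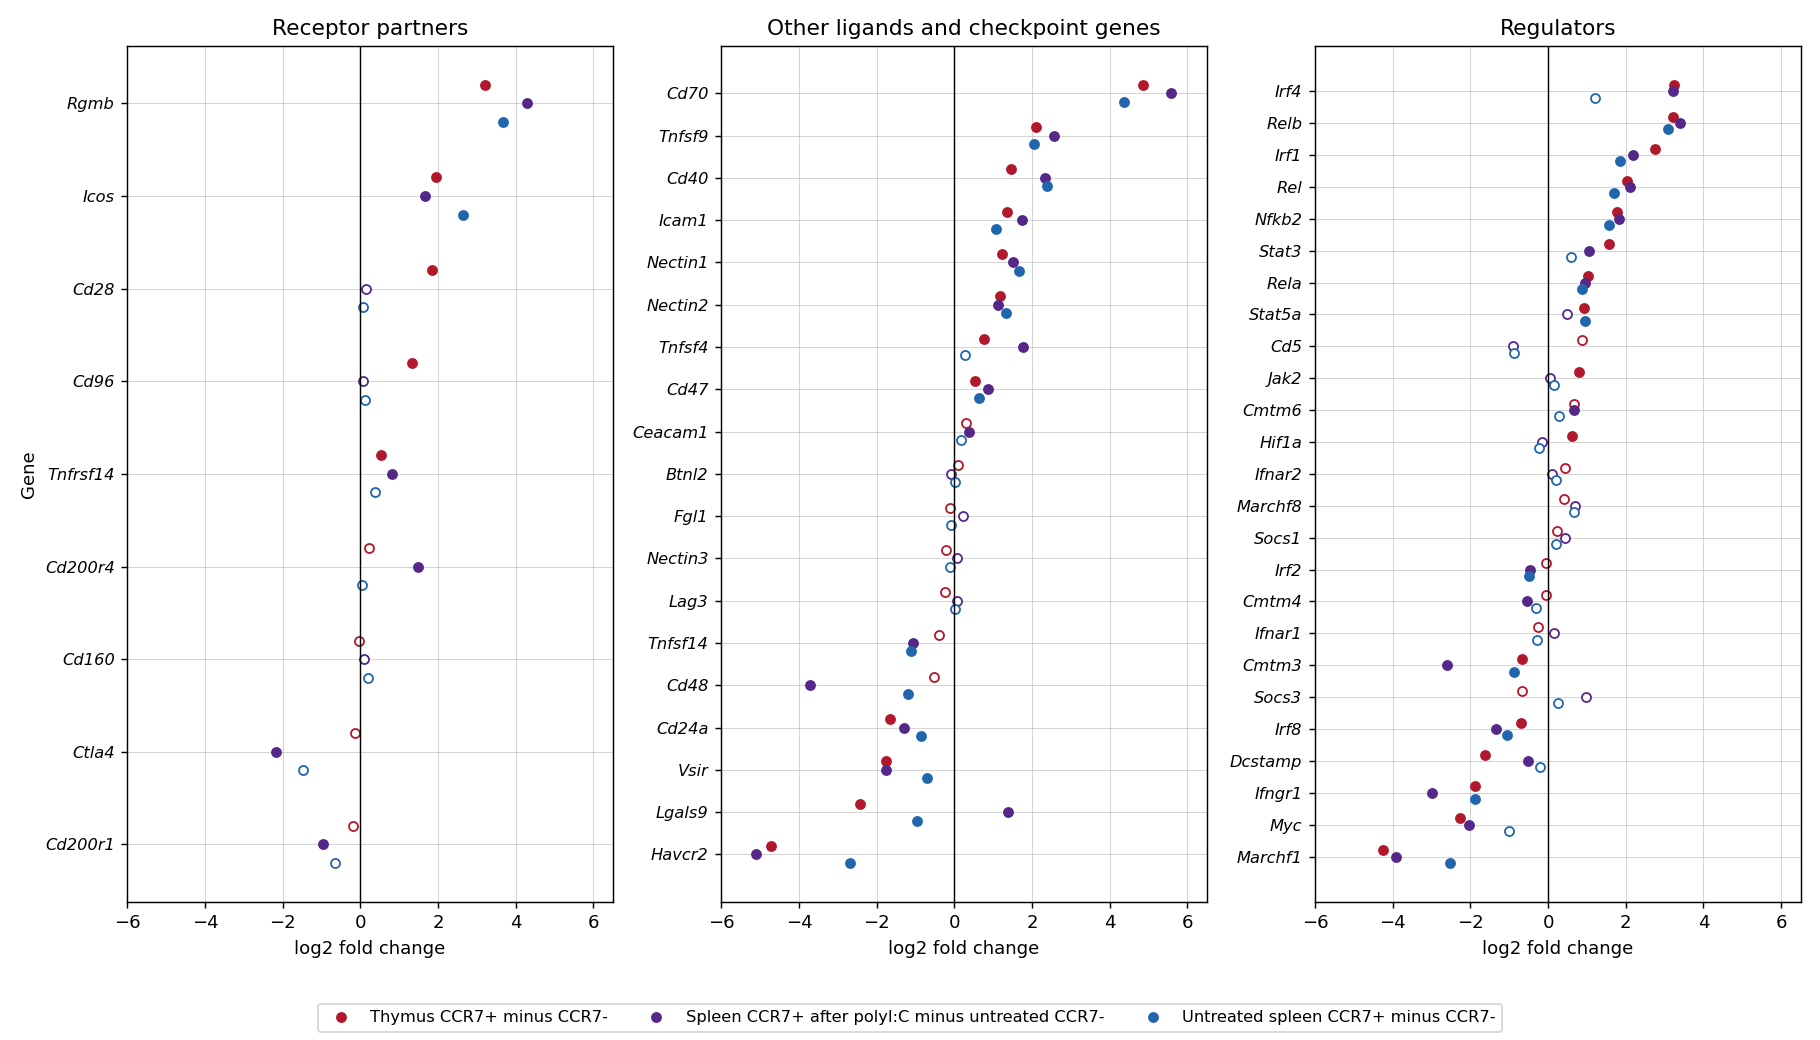
Log2 fold change between CCR7+ and CCR7- cells of the tested receptor partners (9 genes), other ligands and checkpoint genes (19) and regulators (25), in the thymus, in the spleen after polyI:C and in the untreated spleen. Filled points are called and open points are not. Rgmb, Cd70 and Relb lie far to the right in all 3 comparisons, and Havcr2 and Marchf1 far to the left.

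Of 24 other ligands and checkpoint genes, 21 had a probe set and 19 were tested. In thymus CCR7+ cells 8 were called higher and 4 lower (median 0.09, beside -0.06 over all genes), after polyI:C 10 and 5 (median 0.38, beside 0.02), and in untreated spleen CCR7+ cells 7 and 6 (median 0.03, beside -0.03), or 7 and 5 without replicate 1. The share of all genes tested that was called was 37.3%, 46.4% and 36.5% in the same order. The 3 that rose most were the same in each: Cd70, the ligand of CD27, by 4.86, 5.59 and 4.37, Tnfsf9, the ligand of 4-1BB, by 2.10, 2.58 and 2.06, and Cd40, the receptor for CD40 ligand, by 1.47, 2.34 and 2.40. Cd70 averaged 3.67 in spleen CCR7- cells, with 0 of 3 arrays above the filter, so its changes in the spleen are against a signal not above the filter. Havcr2, which encodes the checkpoint receptor TIM-3, fell by 4.72, 5.10 and 2.69. Lgals9, which encodes galectin-9, fell by 2.44 in thymus CCR7+ cells and by 0.95 in untreated spleen CCR7+ cells but rose by 1.39 after polyI:C. Vsir, which encodes VISTA, fell by 1.75, 1.75 and 0.71, and Cd48, a ligand of CD244, fell by 3.72 after polyI:C and by 1.19 in untreated spleen CCR7+ cells, with -0.52 in the thymus, not called. The PVR relative Nectin2 rose by 1.18, 1.13 and 1.33, and it too had 0 arrays above the filter in spleen CCR7- cells (mean 3.59).

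Of 27 genes that regulate the members or their surface level, 25 had a probe set and all of these were tested. In thymus CCR7+ cells 10 were called higher and 6 lower (median 0.44, beside -0.06 over all genes), after polyI:C 8 and 8 (median 0.15, beside 0.02), and in untreated spleen CCR7+ cells 6 and 5 (median 0.20, beside -0.03), or 8 and 4 without replicate 1. Over all genes tested, 37.3%, 46.4% and 36.5% were called in the same order. Marchf1, which encodes the ubiquitin ligase MARCH1 that removes CD86 and MHC class II from the surface, fell by 4.26 in thymus CCR7+ cells, by 3.91 after polyI:C and by 2.52 in untreated spleen CCR7+ cells. The interferon-gamma receptor chain Ifngr1 changed by -1.89, -2.99 and -1.88, all called. Relb, an NF-kB subunit of mature dendritic cells, rose by 3.21, 3.39 and 3.08, and Irf1, a transcription factor of the interferon response, by 2.75, 2.18 and 1.86. Irf4 rose by 3.23 in thymus CCR7+ cells and by 3.23 after polyI:C, and had 1.20 in untreated spleen CCR7+ cells, not called. Cmtm6, whose product protects PD-L1 from degradation, rose by 0.66 after polyI:C, from 10.96 in spleen CCR7- cells to 11.62. It was not called in the other 2 comparisons, with 11.58 in thymus CCR7+ and 10.93 in thymus CCR7- cells, and 11.23 in untreated spleen CCR7+ cells.

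Across all 15 arrays the members were compared by Pearson's r, given as a description of points that share 5 groups. Cd274, Icosl, Cd83, Cd200 and Pvr had r of 0.74 to 0.95 with one another. The highest r between members was 0.95, for Cd274 and Cd200, and the lowest was -0.96, for Pdcd1lg2 and Btla. The genes whose pattern was most like a member were Mettl17 for Cd80 (r = 0.96), Hars for Cd86 (0.96), Ypel5 for Cd274 (0.98), Rhoc for Pdcd1lg2 (0.98), Mical3 for Icosl (0.96), 4833407H14Rik for Cd83 (0.98), Fgfbp3 for Cd200 (0.99), Mocos for Pvr (0.98) and Itga8 for Btla (0.98), among 13629 tested genes. None of the nearest 3 genes of a member was another member.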

How the data were processed

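Sorted mouse dendritic cells were measured on 15 arrays in 5 groups of 3. Per the labels' protocols, 40 ng of RNA went through 2 rounds of amplification, which can distort transcript proportions. The deposited log2 values were made by the authors with RMA and affy, per the submitters' processing notes, which name no versions. Array medians were 4.86 to 5.00. RMA compresses changes of dim genes and gives no detection call. The number of arrays limits the precision.

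Of 45101 probe sets, 34958 had 1 symbol, 932 had several and 9211 were not listed in the annotation used. Each of 18194 genes took its probe set of highest mean, and the filter kept 13629 with a signal over 4.39 (percentile 40 of the whole table) in 3 or more arrays. limma 3.58.1 in R 4.3.3 fitted 5 group means to all arrays (10 residual and 4.01 prior degrees of freedom), with Benjamini-Hochberg adjustment. An exact permutation test of 3 against 3 arrays cannot go below p = 0.1 and was not used. The fit was tested on simulated data.

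The members and the lists of partners, other ligands, regulators and markers were chosen with earlier results of these data known. Besides the members, the genes named were up to 3 rising and 3 falling called genes of largest change per list and comparison, direct partners of members, the genes most correlated with a member, and the sorting transcripts. Alternatives varied probe set choice, filter, normalisation, variance model and arrays. Same-numbered immature arrays of thymus and spleen deviated together (correlations 0.524 to 0.574), as did mature untreated ones (0.420 to 0.590), so the replicate numbers pair the samples in the comparisons between tissues. This pairing comes from the data, since the labels do not say what a number stands for. Sequences and positions are from RefSeq on GRCm38.p6.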

Additional observations from a re-analysis of the deposited data

Results flagged for a closer look

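The change between CCR7+ and CCR7- cells differed between thymus and untreated spleen for 3 of the 9 tested members, by a direct test of the difference (limma, adjusted over all genes tested). For Cd80 the thymic change minus the splenic change was 2.41 log2 units, with a rise in the thymus and a fall in the spleen. For Cd274 it was 1.92, with a larger rise in the thymus, but the call ended when any 1 of 7 arrays was left out. For Pvr it was -2.14, with a larger rise in the spleen on the chosen probe set, while the other probe sets of Pvr were not called for this difference. The arrays were 3 per group, too few to flag single samples.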

How the results depend on the processing

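Over 819 member values under alternatives other than leaving out an array, 793 kept their side of the threshold, 18 were no longer called, 7 became called and 1 reversed with a call. A change of sign between values that were not called counts among the 793. For Cd80 between immature tissues, for example, the main value was 0.14 and the lowest -0.60. The reversal was Cd86 after polyI:C against spleen CCR7- cells, -0.55 (adjusted p = 0.00743) with the probe set of largest variance in place of the one of highest mean. Over 486 values with an array left out, 431 kept their call, 54 lost it and 1 gained it.

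The counts of members called that moved by over 1.5 times were these. With the mean of each gene's probe sets, and likewise without _s_at, _x_at and _a_at sets, 1 member in place of 2 was higher in thymus CCR7- than spleen CCR7- cells, and 0 in place of 1 had a lower change in the thymus than in the spleen. With the set of largest variance, 2 in place of 1 were lower after polyI:C than in spleen CCR7- cells. Between polyI:C and untreated mature spleen cells, 1 in place of 2 was lower after centring on array medians and 0 with only the groups compared, which also left 1 in place of 3 lower in thymus than in spleen CCR7+ cells. With only those groups, fewer arrays inform the variance. Smaller moves are not listed as counts, among them Pdcd1lg2 losing its call between polyI:C and untreated mature spleen cells, with array weights and with only the groups compared, and Cd274 losing its call between mature tissues with only the groups compared.

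Leaving out single arrays gave, for the thymus CCR7+ against CCR7- comparison, 7 to 7 members higher and 1 to 2 lower, for the untreated spleen 6 to 6 and 2 to 3, and after polyI:C 7 to 7 and 1 to 1. Between polyI:C and untreated mature spleen cells it gave 4 to 5 and 0 to 2, between immature tissues 1 to 2 and 0 to 2, between mature tissues 3 to 4 and 1 to 3, between thymus CCR7+ and polyI:C cells 0 to 1 and 3 to 5, and for the tissue difference 1 to 2 and 1 to 1.

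With replicate number as a block in the fit of all arrays, 1 member in place of 2 was lower in thymus CCR7+ than CCR7- cells, as Cd86 lost its call, and the numbers did not pair all groups (30 same-numbered correlations from -0.397 to 0.635, median 0.02). Where the numbers pair thymus with spleen, a block of replicate number within fraction (CCR7+ or CCR7-), added after seeing the data and fitted to the 12 untreated arrays, called 2146 genes in place of 1112 between immature tissues, 3501 in place of 1660 between mature tissues and 1462 in place of 433 for the difference. It left the members' counts between tissues as they were, and for the difference 2 members in place of 1 had a lower change in the thymus, Icosl (-0.86, adjusted p = 0.047) being added. The cause of these shifts was not tested. Signals near the filter limit what can be said of Cd276 and of the second Icosl set.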
